A study of Mus musculus with 15 samples.

Results

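Gene levels in J1 mouse embryonic stem cells (ESCs) overexpressing Zscan4 were set beside those of control 2-cell mouse embryos, to see which genes of the embryo are reached in the stem cells and which stay off. The comparison used 7 of the 15 libraries: 2 of overexpressing ESCs and 5 of control embryos. A further 2 libraries of control ESCs and 6 of embryos with Zscan4 RNAi served as references. All ESCs were J1 cells grown without feeder cells and carried the same passage label, PN+8; the controls had the genotype wild type and the others Zscan4 OE. The control embryos had the genotype wild type and the RNAi embryos Zscan4 RNAi. The sources used here do not give the overexpressed Zscan4 copy, its promoter, the time of expression, whether the cells were 1 clone, or the number of embryos in a library. Nothing in the labels says that libraries of a group came from separate cultures or embryo pools, and the p-values therefore cover a spread between libraries that may be technical.

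Zscan4 genes encode nuclear proteins with a SCAN domain and zinc fingers. They are transcribed in a burst when the mouse genome is switched on in the 2-cell embryo, and again, briefly, in a small share of cultured ESCs, the 2C-like state. The RNA of a 2-cell embryo has 2 sources: transcripts that the oocyte stored before fertilisation, such as those for oocyte-secreted proteins and the maternal RNA decay machinery, and transcripts newly made by the embryo, such as members of the Tcstv, Trim43, Usp17 and PRAME families. ESCs derive from a later stage and normally make few of either.

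Gene symbols that stood on 1 row in each table were matched, which gave 47328. The 2 tables were normalised separately, and tissue, table, library preparation and depth cannot be told apart, so no test was made across them. Each gene was instead placed by its percentile within a library, the percentage of matched genes with a lower value there; a gene with no read stands at 0. The 9 Zscan4 copies were left out of the counts, leaving 47319 genes. A gene at or above percentile 80 in all 5 control embryos is called embryo-high. An embryo-high gene was shared when it was also at or above 80 in both control ESC libraries, and embryo-restricted when it was under 60 in both. An embryo-restricted gene was reached when it stood at or above 80 in both overexpression libraries, off when it stood under 60 in both, and partly reached otherwise. Percentile 60 corresponded to 2 to 3 reads in an ESC library and percentile 80 to 162 to 224 reads; in the control embryos percentile 80 was 6 to 11 reads.

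The stretches upstream of several genes on which the comparison turns are printed here, 150 bases up to the RefSeq start (GRCm38.p6, 5′ to 3′ on the gene's strand), with CG pairs in capitals because CG content differs widely between these promoters. Pramel7 (chr2:87492419-87492568, minus strand) was the reached gene, and its neighbour Pramel6 (chr2:87506415-87506564, plus strand) fell just short. Bmp15 (chrX:6320725-6320874, minus strand) was partly reached. Oog3 (chr4:144162652-144162801, minus strand), Btg4 (chr9:51115851-51116000, plus strand), Obox5 (chr7:15750220-15750369, plus strand) and Omt2b (chr9:78327880-78328029, plus strand) were off. Zscan4c (chr7:11005595-11005744, plus strand) is a copy of the overexpressed family, and Nelfa (chr5:33936272-33936421, minus strand) is a shared gene.
Pramel7: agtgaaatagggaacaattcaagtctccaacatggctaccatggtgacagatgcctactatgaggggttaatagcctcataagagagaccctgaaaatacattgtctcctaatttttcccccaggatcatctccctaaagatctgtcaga
Pramel6: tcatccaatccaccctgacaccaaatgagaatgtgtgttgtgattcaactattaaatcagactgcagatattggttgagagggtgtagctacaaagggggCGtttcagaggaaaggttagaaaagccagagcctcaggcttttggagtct
Bmp15: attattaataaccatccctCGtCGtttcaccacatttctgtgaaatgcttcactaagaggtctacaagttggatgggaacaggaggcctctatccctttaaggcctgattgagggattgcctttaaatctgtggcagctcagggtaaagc
Oog3: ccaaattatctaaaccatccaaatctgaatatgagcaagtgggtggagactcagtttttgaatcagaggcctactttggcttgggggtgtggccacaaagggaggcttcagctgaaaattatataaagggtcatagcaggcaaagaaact
Btg4: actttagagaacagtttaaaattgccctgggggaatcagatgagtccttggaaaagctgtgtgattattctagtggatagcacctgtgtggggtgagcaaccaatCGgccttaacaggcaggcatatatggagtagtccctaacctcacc
Obox5: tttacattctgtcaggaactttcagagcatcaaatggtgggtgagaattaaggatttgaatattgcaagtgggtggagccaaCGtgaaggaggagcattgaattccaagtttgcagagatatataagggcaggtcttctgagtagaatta
Omt2b: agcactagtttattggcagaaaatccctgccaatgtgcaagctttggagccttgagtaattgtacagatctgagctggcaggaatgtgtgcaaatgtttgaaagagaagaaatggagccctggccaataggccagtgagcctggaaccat
Zscan4c: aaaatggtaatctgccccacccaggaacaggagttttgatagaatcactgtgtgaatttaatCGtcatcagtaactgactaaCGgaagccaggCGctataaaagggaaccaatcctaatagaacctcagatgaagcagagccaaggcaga
Nelfa: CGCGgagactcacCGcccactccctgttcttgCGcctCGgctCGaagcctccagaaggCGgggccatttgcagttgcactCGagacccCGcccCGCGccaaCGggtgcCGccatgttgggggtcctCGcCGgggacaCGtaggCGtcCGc

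The printed stretch held 0 CG pairs for Pramel7, Oog3 and Omt2b, 1 for Pramel6, Btg4 and Obox5, 2 for Bmp15, 3 for Zscan4c and 18 for Nelfa. Over 250 bases upstream, the reached, partly reached and off genes among these had 1 or 2 CG pairs, against a median of 10 over the 18867 matched genes with a RefSeq promoter. The letters TGCACAC, a motif ascribed to Zscan4, were searched on both strands of the 250 bases and found in 3.83% of all promoters; among the 9 printed genes only Omt2b holds it. TATAAA, searched in the same way and found in 13.3% of all promoters, lay upstream of Oog3, Bmp15 and Zscan4c. A comparison of promoters between the gene classes is void, because only 34.0% of the embryo-restricted and 79.9% of the shared genes have a RefSeq promoter in the table.

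Gene-assigned reads numbered 21820093 to 26555027 in ESC libraries and 695524 to 1329117 in control embryos. The overexpression libraries differed from each other more than the control ESC libraries did: a chi-square of their reads per degree of freedom was 128 against 2.69, and the median difference in percentile was 1.92 against 0.44. Among the control embryos, control 5 stood farthest from the rest, with a chi-square per degree of freedom of 15.5 to 21.6 against each other control, compared with 7.14 to 11.9 for the other pairs. Without control 5, the gene counts below stayed within 1.5 times their values. By percentile, 8 of 9 stem cell markers stood above all 5 control embryos in both overexpression libraries and 1 overlapped their range. All 9 oocyte and 2-cell markers stood below all 5. Over all 47319 genes, 17.2% stood above and 9.93% below. All 9 oocyte and 2-cell markers were embryo-high, and of all embryo-high genes 47.4% stood below. In whole-culture libraries, a few cells with much of an RNA and many cells with little cannot be told apart.

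Most genes that stood high in the 2-cell embryo already stood high in ESCs, and overexpression brought 1 embryo-restricted gene into the range at or above percentile 80. Of 6552 embryo-high genes, 5926 of them protein-coding, 4975 (75.9%) were shared, 1092 (16.7%) lay in between and 485 (7.40%) were embryo-restricted. Of these 485, Pramel7 was reached, 151 (31.1%) were partly reached and 333 (68.7%) were off. In all, 272 had no read in either overexpression library, 99 had reads in 1 of them and 114 in both, 31 of these with at least 10 reads in both. At or above percentile 60 in both overexpression libraries stood 76 of the 485, or 15.7%, against 1.81% of the 26807 other genes that were under 60 in both control ESC libraries; at or above 80, it was 1 of 485 against 0 of 26807. Those shares moved with the library used: with overexpression library 2 alone they were 27.01% and 4.22%. Genes with no read in any ESC library enter both shares: 256 of the 485 had none, as had 23078 of all 47319 genes. The 2 sets were not matched for this. With overexpression library 1 alone, 96 genes were partly reached. The number reached ran from 0 to 14 over the other percentile limits and sets of ranked genes that were tried, and was 4 with overexpression library 2 alone or control ESC library 1 alone.

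**Figure D1:**
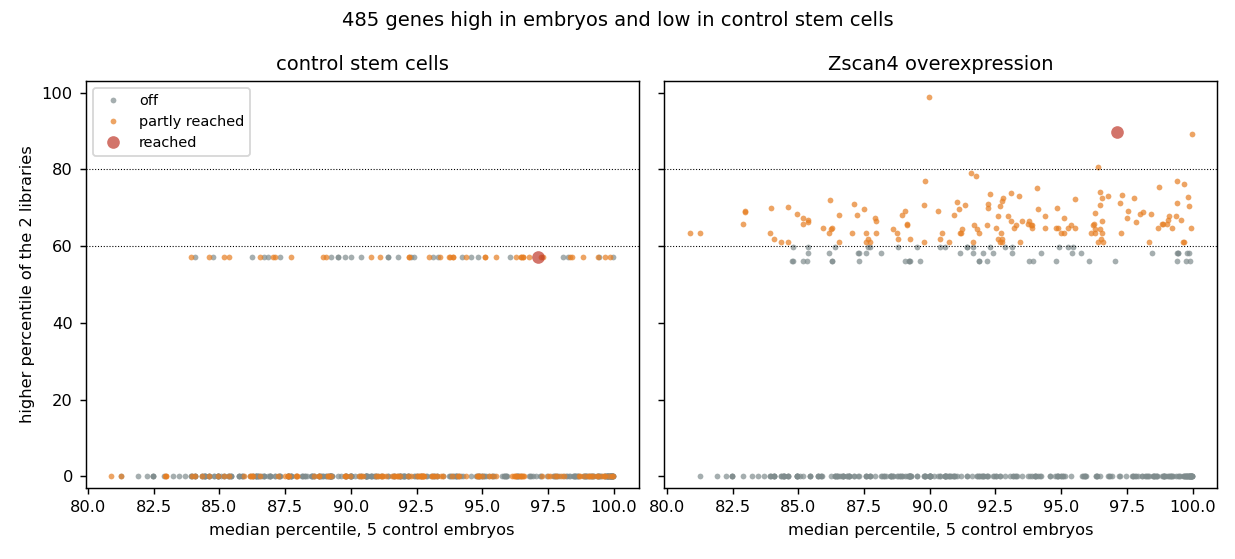
Each point is 1 of the 485 embryo-restricted genes, by its median percentile in the 5 control embryos (horizontal) and the higher of its percentiles in the 2 control (left) or 2 overexpression (right) ESC libraries (vertical), coloured by class, with dotted lines at 60 and 80. On the right, 272 genes lie at 0, and the large point is Pramel7, the gene at or above 80 in both libraries; the other points above 80 were so in 1 library.

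The Zscan4 copies themselves stood above the embryos in some cases and below in others. Zscan4c (chromosome 7, positions 11005745 to 11010547, mm10) was at percentile 72.4 and 73.6 in the control ESCs, 99.2 and 99.3 with overexpression, and 96.1, 97.2, 89.8, 96.8 and 71.5 in control embryos 1 to 5. Zscan4d (chromosome 7, 11161374 to 11166159), the copy that ranked highest in the embryos, was at 87.6 and 87.0 with overexpression and at 99.2, 99.2, 98.6, 98.3 and 98.2 in the embryos. Zscan4c therefore lay above all 5 embryos and Zscan4d below all of them. Zscan4f was also above all embryos, at 98.0 and 97.3 against 86.9 to 95.1. For Zscan4c, Zscan4d, Zscan4e and Zscan4f, between 65.03% and 93.7% of the 31-base sequences occur in another gene; the other copies were not measured. The division of reads between copies is unknown, so the order of single copies is uncertain.

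Pramel7 (chromosome 2, 87489087 to 87497093), a PRAME family gene known in ESCs for lowering DNA methylation through degradation of Uhrf1, had 0 and 1 reads in the control ESCs and 934 and 804 with overexpression. Its percentile was 0 and 57.1 in the controls, 88.5 and 89.7 with overexpression (89.1 ± 0.858, SD, n = 2) and 94.8, 97.2, 97.1, 97.6 and 94.9 in the embryos (96.3 ± 1.35, SD, n = 5). Both overexpression libraries were thus far above both controls, and both were below every embryo. Pramel7 was classed as reached from these same ESC libraries, and it passed the filter on low values only through the overexpression libraries. A test within the ESC table therefore gives no separate support for its rise. Within that table the rise passed the threshold (limma, adjusted p = 0.0112). That fit called 2453 of 20888 genes higher (11.7%) and 2390 lower (11.4%), but it rests on both control libraries: on the same genes without control 1 or control 2, limma made 0 calls at the adjusted threshold, with 3617 and 3646 genes at an unadjusted p under 0.05. With the filter on low values applied again to the remaining libraries it called 1161 genes higher and 956 lower without control 1, and 1207 and 966 without control 2.

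Other PRAME genes split into those that appeared with overexpression and those that did not. Pramel6 (chromosome 2, 87506565 to 87510872), next to Pramel7, had no read in either control ESC library and 154 and 182 with overexpression. Its percentiles of 78.3 and 80.6 straddled the limit of 80, and the embryos stood at 95.1 to 97.4. Pramef17 (chromosome 4, 143991119 to 143994369) went from 1 and 2 reads to 602 and 489, at percentiles 85.5 and 86.4 against 92.7, 90.8, 91.0, 91.1 and 85.4 in the embryos. It is 1 of the crossing genes below, with its overexpression values inside the embryo range through control embryo 5 alone and below the other 4 embryos. It shares 80.9% of its 31-base sequences with Gm13128. Pramef25 was at 72.3 and 73.7 against 97.8 to 99.2 in the embryos, while Oog3 (chromosome 4, 144157557 to 144162663), an oocyte member of the family, had no read in any ESC library and stood at 99.97 to 99.99 in the embryos. Oog1 and Oog2 likewise had no read in the overexpressing cells. Of the PRAME list, 13 of 17 matched members were embryo-high. Of these 13, 2 were shared, 4 lay in between and 1 was reached. A further 3 were partly reached (Pramel6, Pramel5 and Pramel4) and 3 were off (Oog3, Oog1 and Oog2). Of the 31-base sequences of Pramel4, 91.5% also lie in other genes, so its reads are uncertain. Gm13102, which is not on the list, shares 88.3% of them and was off. In the ESC fit 8 of 11 tested members of the list were higher and 0 lower, against 11.7% and 11.4% of all tested genes. Pramel7, Pramel6, Pramel5 and Pramel4 passed the filter on low values only through the overexpression libraries, so they could not come out lower.

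The partly reached genes were mostly present at a few reads. Just under the limit of 80 stood Pramel6, Eif4e1b (an oocyte relative of the cap-binding protein, at 76.2 and 78.9) and Timd2 (at 75.5 and 76.9). Timd2 (chromosome 11, 46668960 to 46707061), a cell surface receptor that binds H-ferritin, had 1 and 1 reads in the controls, against 75 and 79 with overexpression; the embryos were at 99.4, 99.8, 99.3, 99.4 and 92.3. Trim43b, a tripartite motif gene of early embryos, had 1 and 0 reads in the controls, against 61 and 65 with overexpression, at percentiles 74.8 and 76.1 against 98.2 to 99.7 in the embryos.

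Bmp15 (chromosome X, 6314107 to 6320721), a growth factor that oocytes secrete, had no read in either control; overexpression gave 34 and 24. It stood at percentiles 72.7 and 72.3 there and at 99.92, 99.80, 99.82, 99.78 and 99.95 in the embryos. Trim61 was at 68.8 and 70.6 from 13 and 15 reads, against 99.83 to 99.95. Both groups of libraries were tight and far apart for these genes. A few genes differed between the overexpression libraries instead: the pseudogene Eif4a-ps4 had 71 reads in library 1 and 6960 in library 2, and the long noncoding RNA AY036118 had 0 and 735.

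**Figure D2:**
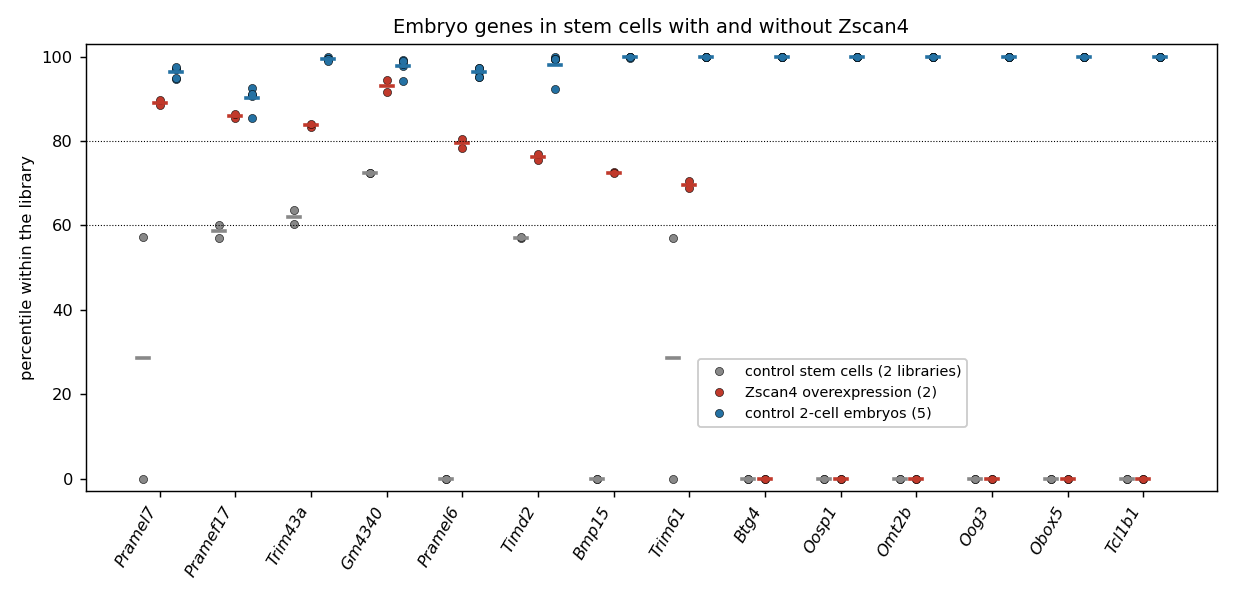
Percentile of named genes within a library (vertical) in 2 control ESC, 2 overexpression ESC and 5 control embryo libraries, 1 point per library, bars at the group means and dotted lines at 60 and 80. Pramel7 lies at 88.5 and 89.7 with overexpression, below the embryos, while Btg4, Oosp1, Omt2b, Oog3 and Obox5 lie at 0 in every ESC library.

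A wider view counts every embryo-high gene that stood under 80 in both control ESC libraries, 1503 in all, and asks which crossed to 80 or above in both overexpression libraries. Of these, 123 crossed (8.18%), 115 of them protein-coding, against 421 of 36218 genes that were not embryo-high (1.16%) and 1.44% of all genes under 80 in both controls. The share varied with the level in the control cells. From percentile 75 to 80 in the higher control, 95 of 406 embryo-high genes crossed (23.4%) and 346 of 1987 others (17.4%). From 70 to 75 it was 14 of 253 (5.53%) against 56 of 2291 (2.44%), from 60 to 70 it was 13 of 359 (3.62%) against 19 of 5133 (0.370%), and under 60 it was 1 of 485 (0.206%) against 0 of 26807. The embryo-high share was the higher in each band, and both shares were smaller the lower the starting band. Just above the limit of 80 stood Abhd6 (80.003 and 81.7), Tmem216 (80.05 and 82.2) and Fbxl17 (80.08 and 80.5). Of the crossing genes, 87 (70.7%) still lay below all 5 embryos and 36 overlapped their range. Over all 1503 genes, 1458 (97.0%) lay below and 45 overlapped, but the crossing genes were chosen for standing high with overexpression.

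**Figure D3:**
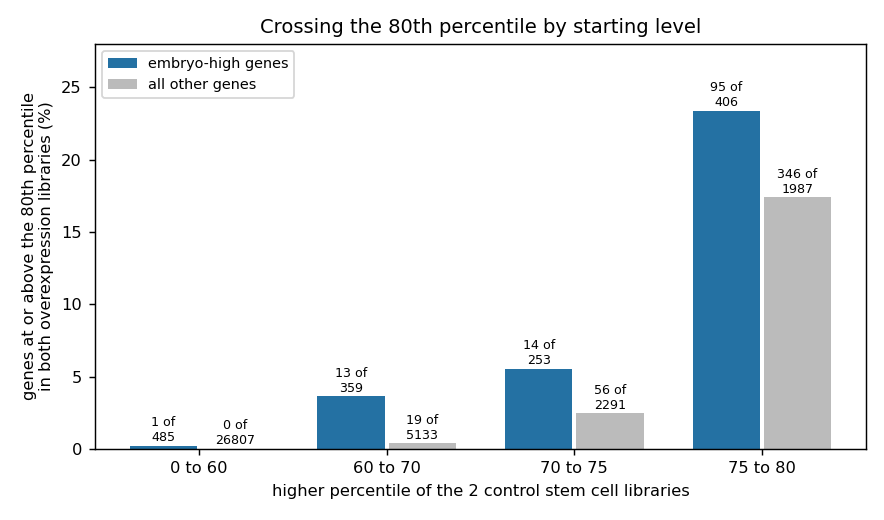
Percentage of genes that crossed percentile 80 with overexpression, by their percentile in the higher control ESC library, for embryo-high genes and for all others, with the number of genes above each bar. The share was 23.4% against 17.4% in the band from 75 to 80 and 0.206% against 0% under 60.

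The crossing genes with the largest gains came from repeated early-embryo families and from genes with other roles. Trim43a (chromosome 9, 88580891 to 88588819) had 2 and 4 reads in the controls, against 422 and 347 with overexpression, at percentiles 83.3 and 84.1 against 99.8, 99.5, 99.4, 99.4 and 98.9 in the embryos; it shares 63.5% of its 31-base sequences with other genes. Gm4340 (chromosome 10, 104194042 to 104196522), in the 2-cell list, rose from 72.5 and 72.4 to 91.7 and 94.6 (limma, log2 fold change 5.64, SE 0.30, adjusted p = 0.0112), and the embryos were at 99.2, 97.8, 98.2, 94.2 and 98.9. All of its 31-base sequences (100%) also lie in Gm20765, so its value is uncertain. Gm2016 rose to 83.6 and 81.6 (limma, adjusted p = 0.0163), with the embryos at 99.0 to 99.8. All 3 genes stood between the control ESCs and most or all of the embryos. Crossing genes, Rpl10l below included, were defined by their rise in these same ESC libraries, so their limma p-values there give no separate support.

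Rpl10l (chromosome 12, 66283379 to 66284401), a retrotransposed copy of the ribosomal protein gene Rpl10 known from male meiosis, stood inside the embryo range, whose lower end is control embryo 5. It was at 79.6 and 79.3 in the controls, 95.0 and 96.2 with overexpression, and 97.2, 97.1, 97.1, 95.7 and 88.5 in the embryos (limma within the ESC table, log2 fold change 3.82, SE 0.21, adjusted p = 0.0112). Against the other 4 embryos, library 1 lay below and library 2 inside. Wdr45, which encodes an autophagy protein, went from 73.9 and 73.4 to 88.0 and 90.8, with the embryos at 94.6, 97.0, 88.9, 92.3 and 92.5; it overlaps Gm45208. Enox1, an oxidase gene of the cell surface, was at 94.0 and 91.7 with overexpression and 89.6 to 97.2 in the embryos, and Etv1, an ETS family transcription factor, at 90.9 and 86.8 against 80.9 to 90.8. Each of these 4 genes had at least 1 overexpression library inside the range of all 5 embryos.

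The protein-coding off genes with the highest embryo levels included several known from oocytes; over all 333 off genes, 18 are on the maternal oocyte list. Omt2b (chromosome 9, 78327589 to 78329620), an oocyte maturation gene, had no read in any of the 4 ESC libraries and stood at 99.98 to 99.99 in the embryos. Btg4 (chromosome 9, 51060901 to 51119875), the adaptor that directs the CCR4-NOT deadenylase to maternal mRNA, also had no ESC read, with embryos at 99.96, 99.95, 99.93, 99.91 and 99.97. Its interval overlaps Layn and other genes. Oosp1 (chromosome 19, 11667460 to 11691150), an oocyte-secreted protein, had none either, with embryos at 99.93, 99.90, 99.92, 99.85 and 99.87. At this depth, 0 reads allow up to 3 reads, which is 2.73 and 3.58 normalised reads in the overexpression libraries and covers counting error only. Rfpl4, an oocyte RING finger gene, had no ESC read and stood at 99.5 to 99.8.

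Of the 59 matched genes of the maternal oocyte list, 52 were embryo-high. Of these, 11 were shared, 21 lay in between, 2 were partly reached (Bmp15 and Nlrp4e) and 18 were off, 14 of the 52 having no read in either overexpression library. Nlrp5, a subunit of the subcortical maternal complex, was off with 2 and 1 reads, whereas Ooep of the same complex was shared at 85.8 and 90.2 against 93.5 to 96.6. Of the list, 41 embryo-high genes stood under 80 in both control ESC libraries, and 4 of these crossed. Over all embryo-high genes under 80 in both, 123 of 1503 (8.18%) crossed. The 4 were Accsl (83.9 and 85.1), Nlrp4f (82.9 and 80.3), Zp3 (81.6 and 86.2), which encodes the sperm-binding protein of the egg coat, and Tle6 (80.5 and 83.6). The ESC fit called 7 of 39 tested members higher and 3 lower, against 11.7% and 11.4% of all tested genes. Spin1, a histone reader and the highest ranked of the list in the embryos, was shared at 94.8 and 92.7, with embryos at 99.98 or above.

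The Obox genes, a homeobox family of oocytes and early embryos, stayed low. All 7 were embryo-high and 6 were off. Obox5 (chromosome 7, 15750131 to 15759800) had no ESC read and stood at 99.94, 99.95, 99.90, 99.92 and 99.93 in the embryos. Obox3 had 1 read in overexpression library 1 and 0 in library 2, with embryos at 97.9 to 99.7. The remaining member, Obox6 (chromosome 7, 15833241 to 15839678), was at 72.4 and 72.2 in the controls, 74.0 and 74.7 with overexpression and 99.8, 99.7, 99.7, 99.7 and 99.3 in the embryos. Its change within the ESC table did not pass the threshold (limma, log2 fold change 0.67, SE 0.33, adjusted p = 0.20).

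At the Tcl1 locus on chromosome 12, close neighbours took different positions. Tcl1 (105216750 to 105222793), a coactivator of the kinase Akt known from both oocytes and ESCs, was shared: it was at 84.5 and 84.4 in the controls, 95.1 and 96.4 with overexpression and at least 99.98 in the embryos, and it rose within the ESC table (limma, log2 fold change 2.56, SE 0.21, adjusted p = 0.0117). Tcl1b1 (105159690 to 105166625) had no read in any ESC library and stood at 99.94 to 99.97 in the embryos. Tcl1b2 and Tcl1b3 had 1 read each over both overexpression libraries and were off as well.

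Not all off genes were protein-coding messages: 124 of the 333 were, with 73 pseudogenes, 46 long intergenic noncoding RNAs, 39 antisense genes and 10 transfer RNA genes of the mitochondrion. Those 10 genes had embryo medians from 88.9 (mt-Th) to 99.1 (mt-Tl1) and no read in any ESC library, whereas 16 of the 27 embryo-high mitochondrial genes were shared. Genes with 1 exon made up 27.9% of the off genes, 28.5% of the partly reached, 4.88% of the crossing and 1.83% of the shared ones, against 38.4% of all matched genes. Whether the library preparations retained short RNA alike was not tested. Of the partly reached genes, 85 of 151 were protein-coding. Chromosome 3 held 22 of the 151, 40 of the 485 embryo-restricted and 2790 of all 47319 genes.

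Over all embryo-high genes the distance to the embryo was about as large with overexpression as without. The median gap to the embryo median was 5.82 and 5.78 percentile points in the controls, against 5.70 and 5.80 with overexpression. Of the 6552 genes, 3108 (47.4%) lay below all 5 embryos in both overexpression libraries and 1312 (20.02%) above all of them; over all 47319 genes, these shares were 9.93% (4700 genes) and 17.2% (8140). The background depends on how genes with no read are ranked: with average ranks for ties, 28969 of all genes lay below the embryos and 7916 above. In the control ESCs 3392 embryo-high genes lay below the embryos and 1513 above. For the 1503 genes, chosen for being under 80 in the controls, the median gap was 25.5 and 25.2 in the controls, against 23.6 and 23.2 with overexpression. For the 333 off genes it was 90.9 in each control and 90.2 and 90.6 with overexpression. Off genes were chosen for being under 60 in both controls and both overexpression libraries, so their gap had to stay large.

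The list of 2-cell and 2C-like genes moved part of the way. Of its 43 matched genes, 36 were embryo-high: 2 were shared, 20 lay in between, 11 were partly reached and 3 (Tdpoz1, Tdpoz2 and Tdpoz5) were off, and 5 of the 36 crossed (Gm2016, Gm5662, Trim43a, Gm8300 and Gm4340). The median gap of these 36 to the embryo was 39.3 and 35.6 in the controls, against 25.2 and 23.5 with overexpression. With overexpression 34 of the 36 still lay below all 5 embryos. Under 80 in both control ESC libraries stood 34 of the 36. Of all 1503 embryo-high genes under 80 in both, 1458 (97.0%) lay below all 5 embryos with overexpression, and 123 (8.18%) crossed. In the ESC fit 22 of 39 tested members of the list were higher and 3 lower, against 11.7% and 11.4% of all tested genes. Their median log2 fold change was 2.97, against -0.02 over all matched genes. Tested members that were partly reached passed the filter on low values only through the overexpression libraries, so they could not come out lower. Usp17lb, a deubiquitinase gene of the list, was at 74.6 and 75.6 against 99.0 to 99.7 in the embryos. Duxf3, the homeobox gene that switches on many 2-cell genes, was at 72.4 and 75.3 and is not embryo-high, with no read in 3 of the 5 control embryos. The list was chosen with earlier results of these libraries known.

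**Figure D4:**
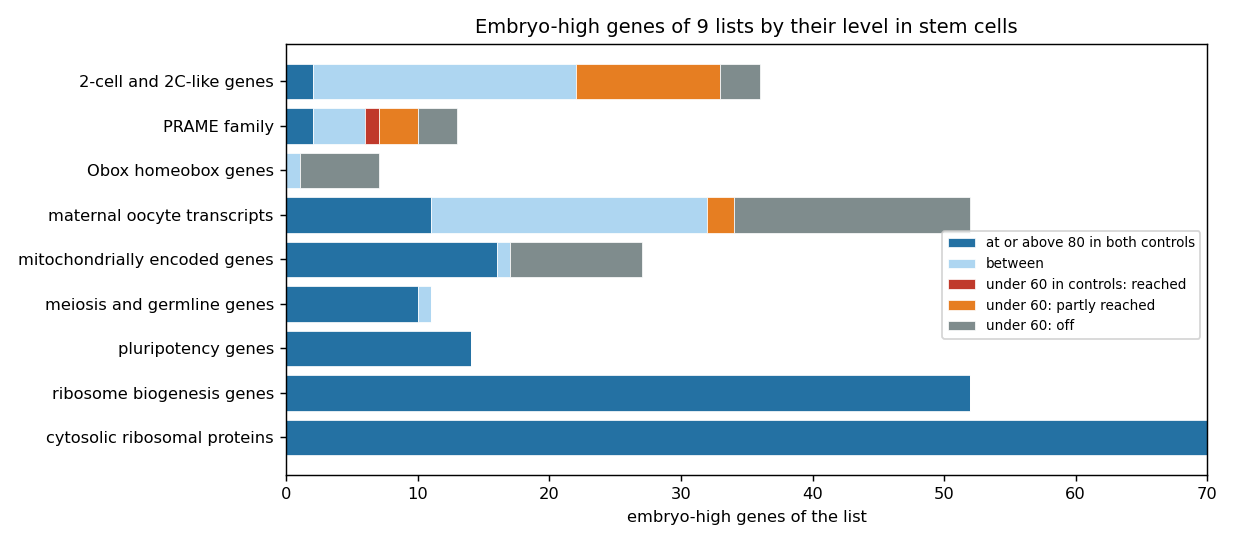
Number of embryo-high members (horizontal) of 9 gene lists, split by colour into shared, in between, reached or partly reached, and off. All 14 embryo-high pluripotency genes were shared, whereas 6 of 7 Obox genes and 18 of 52 maternal oocyte genes were off.

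Pluripotency genes mostly stood above the embryos by percentile. Of the 26 pluripotency genes, 18 stood above all 5 embryos in both overexpression libraries and 0 below, against 17.2% above and 9.93% below over all genes. Of all genes, 25128 had no read in either overexpression library and could not stand above. Other lists stood above as well: 16 of 16 glycolysis genes (0 below), 65 of 75 cytosolic ribosomal protein genes (1 below) and 38 of 56 ribosome biogenesis genes (3 below). In the ESC fit 9 of the 26 were called higher and 1 lower, against 11.7% and 11.4% of all tested genes. All 52 embryo-high ribosome biogenesis genes and all 70 embryo-high cytosolic ribosomal protein genes were shared. Of 18 genes of the trophectoderm, the outer layer of the later blastocyst, 8 were above all embryos, 1 was below and 9 overlapped. Lists of other kinds had like counts above the embryos, such as 7 of 14 primitive endoderm genes and 10 of 16 primed epiblast and germ layer genes. Krt18, a keratin of the trophectoderm, was at 85.3 and 85.1 in the controls, 99.5 and 99.7 with overexpression and 71.7 to 89.8 in the embryos. Gata3, a transcription factor of the same layer, went from 69.1 and 68.7 to 85.8 and 84.4, inside the embryo range of 72.1 to 88.8. Within the ESC table, the summed level of 13 fibroblast feeder markers was 5489 and 7492 normalised reads with overexpression and 2254 and 2229 without, and 3 of 11 tested markers were called higher and 2 lower. By percentile, 6 of the 13 stood above all embryos and 7 overlapped. Their part in the results was not tested. Of 19 cumulus and granulosa markers, 1 was embryo-high.

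A small share of the genes with no read in any control embryo also appeared with overexpression. Under 60 in both control ESC libraries stood 21526 such genes. With overexpression, 209 of these (0.971%) were at or above 60 in both libraries and 0 at or above 80. Of all 26807 genes that were as low and not embryo-high, 484 (1.81%) were at or above 60 in both. Serpinb9e, of a family of serine protease inhibitors, had no read in either control and 145 and 105 with overexpression, at percentiles 78.1 and 78.0, and no read in any control embryo. Tlr4, the receptor for bacterial lipopolysaccharide, had 1 and 0 reads in the controls, against 121 and 308 with overexpression. Il24, a cytokine gene, had 59 and 56 from none, and BC035044 had 71 and 50 from none. Serpinb9g (75.7 and 74.4) and Serpinb9f (73.2 and 76.5) completed the 6 highest of this kind; 87.3% and 67.9% of the 31-base sequences of Serpinb9f and Serpinb9g also lie in other genes. These 6 genes were picked for having no embryo read. Embryo depth limits this reading, since 3 reads in a control embryo library already correspond to percentile 71.5 to 74.9 there.

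Some genes that embryos and ESCs share fell out of the upper range with overexpression, and Ccng2 was among those that fell furthest. Of the 4975 shared genes, 95 (1.91%) dropped under 80 in both overexpression libraries, against 467 of 4355 genes (10.7%) that stood at or above 80 in the control ESCs without being embryo-high; this compares genes with different starting levels and was not tested. Ccng2 (chromosome 5, 93267257 to 93276231), a cyclin that restrains the cell cycle, was at 93.0 and 93.4 in the controls, 77.3 and 76.6 with overexpression and 93.8, 89.97, 89.5, 90.4 and 89.0 in the embryos (limma, log2 fold change -4.03, SE 0.21, adjusted p = 0.0112). Ccng2 was picked for its fall in these same ESC libraries, so this p-value gives no separate support. Rab3il1, an exchange factor for Rab proteins, fell to 78.1 and 79.1 with the embryos at 87.3 to 98.1. Hpcal1, a calcium sensor, fell to 77.2 and 79.2 with the embryos at 95.6 to 98.4, and Ablim1, an actin-binding protein, to 69.97 and 67.8 with the embryos at 81.5 to 87.5. Sycp3, a structural protein of meiotic chromosomes, was at 78.3 and 78.9 against 96.0 to 98.9. The 1513 tested genes of chromosome 11 had a median log2 fold change of -0.50 in the ESC fit. The medians of the other autosomes ran from -0.12 (chromosome 9) to 0.11 (chromosome 4). The X stood at 0.27, the mitochondrion at 0.53 (18 genes) and the Y at 0.75 (23 genes). Why chromosome 11 stood low was not tested. Chromosome 11 holds 434 of the 4975 shared genes, 9 of the 95 that dropped and 1 of the 123 that crossed.

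The RNAi embryos give a readout that the classes did not use, apart from the control embryos in which every embryo-high gene had to be high. In limma over the embryo table, 1976 of 16417 genes were lower in RNAi embryos (12%) and 1007 higher (6.13%). Among the 6552 embryo-high genes 1498 (22.9%) were lower and 568 (8.67%) higher. Of the 151 partly reached genes 59 (39.1%) were lower and 13 (8.61%) higher, with a median log2 fold change of -1.28. Of the 123 crossing genes 43 (35.0%) were lower and 12 (9.76%) higher, with a median of -0.72. Of the 333 off genes 76 (22.8%) were lower and 54 (16.2%) higher, with a median of 0.19. The off genes thus had a share lower near that of embryo-high genes as a whole, and the difference between the classes was not tested. With edgeR on the recovered reads, 33 partly reached, 26 crossing and 989 embryo-high genes were lower, and without control embryo 2 limma found 37 partly reached and 977 embryo-high genes lower.

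**Figure D5:**
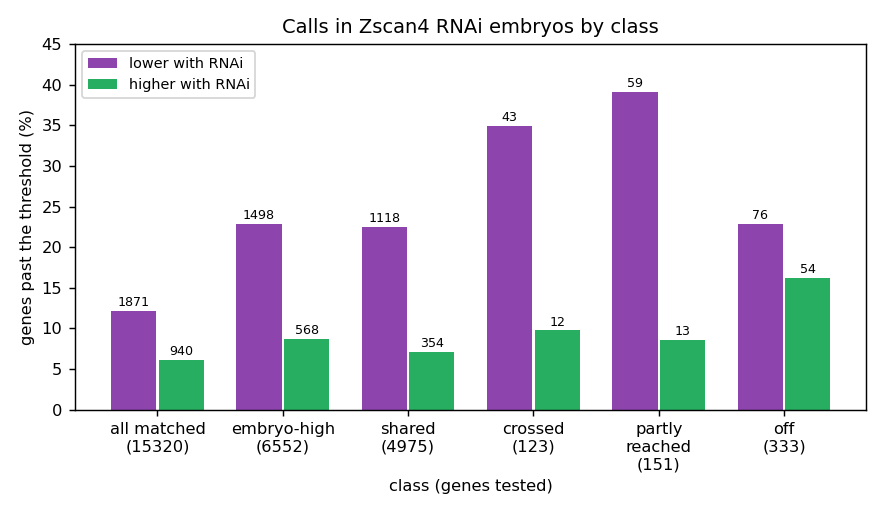
Percentage of genes called lower or higher in RNAi embryos, by class, with the number of genes called above each bar (limma, adjusted p under 0.05). Lower were 39.1% of partly reached, 35.0% of crossing and 22.8% of off genes, against 22.9% of all embryo-high genes.

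Genes that appeared in the overexpressing ESCs were among those lower in RNAi embryos. Pramel7 stood at 78.8, 143, 136, 155 and 68.4 normalised reads in control embryos 1 to 5 and at a lowest, median and highest of 2.60, 21.2 and 72.1 in the 6 RNAi embryos, so the groups overlapped only at their edges (limma, log2 fold change -2.43, SE 0.56, adjusted p = 0.00762). Pramel6 fell by 2.90 (adjusted p = 0.00409), Pramef17 by 2.97 (0.00567), Trim43a by 2.77 (0.00419), Rpl10l by 2.68 (0.00441) and Wdr45 by 2.90 (0.00631) on the log2 scale in the same limma fit. Timd2 ranged from 44.97 to 860 normalised reads in the controls and from 0 to 90.2 in RNAi embryos (log2 fold change -4.35, SE 0.88, limma adjusted p = 0.00417). Gm4340 did not pass (log2 fold change -0.81, limma adjusted p = 0.236). Among the Zscan4 copies, Zscan4f was lower (log2 fold change -2.18, limma adjusted p = 0.0153; 0.0507 without control embryo 2). Zscan4d passed narrowly (-2.22, limma adjusted p = 0.0488), and its call was lost in 10 of 17 alternatives, with adjusted p from 0.0216 to 0.109 over them. Zscan4c missed the threshold (-2.58, adjusted p = 0.0504; 0.00448 without control embryo 5).

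Other genes moved the opposite way or were low with RNAi although ESCs did not reach them. Bmp15, partly reached, was at 700 to 1854 normalised reads in control embryos and 2260 to 6203 in RNAi embryos, with no overlap (log2 fold change 1.71, SE 0.32, limma adjusted p = 0.00338). Enox1, a crossing gene, was higher as well (log2 fold change 1.40, limma adjusted p = 0.0114). Of the off genes, Btg4 was higher (1.40, limma adjusted p = 0.00818; 0.131 with quantile normalisation), as was Tcl1b1 (1.19, limma adjusted p = 0.00717; 0.242 with quantile normalisation). Oosp1 did not pass (0.22, adjusted p = 0.703). The Obox genes were not reached in ESCs, yet Obox6 fell with RNAi from 303 to 768 normalised reads in the controls to 55.5 to 212 (log2 fold change -2.45, SE 0.36, limma adjusted p = 0.00111) and Obox3 from 138 to 639 to between 0 and 194 (-4.32, SE 0.85, limma adjusted p = 0.00389). For Obox6, no RNAi embryo reached the lowest control; for Obox3 the ranges overlapped.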

How the data were processed

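RNA-Seq was analysed from 4 ESC and 11 2-cell embryo libraries; in the labels the library source is genomic DNA, the kit is a DNA kit and the embryos carry the ESC growth protocol, although every title says RNA-Seq. Trimmomatic, HISAT2, featureCounts and the build mm10 are named in the submitters' processing notes; the sources used here do not give versions, annotation, strand setting or how reads matching several genes were counted. The unit of both deposited tables is a normalised signal, read counts that the authors divided by 1 size factor per library, which was read from the values: 100% are whole multiples of a fixed step within 0.01 of 1 read. The design had foreseen counts or units such as FPKM; the planned test for normalised values was kept. The embryo control columns are numbered differently from the labels, so their numbers only name libraries.

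Positions are from GENCODE vM21 (mm10). Of the 47328 matched symbols, 47217 were found there; 200 ESC rows with repeated symbols were left out, and 13 matched symbols look like dates and name no gene here. Percentiles were computed over matched symbols. Within each table, limma 3.58.1 with a trend was run on log2(value + 1), for genes at 1 or more in at least 2 ESC or 5 embryo libraries; p-values were adjusted by Benjamini-Hochberg and called under 0.05. Fold changes on this scale understate the change of low genes. It was tested on simulated data. edgeR 4.0.16 and DESeq2 1.42.0 on recovered reads were alternatives. Transcript sequences were cut into 31-base pieces to find copies.

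The classes, the 20 gene lists and the rules were chosen with earlier results of these data known. Named genes are the Zscan4 copies; the reached genes and the 8 off genes with the highest embryo medians; the 6 highest genes without an embryo read; the 4 shared genes that fell furthest; and up to 3 members per list with the highest embryo medians, all protein-coding where the rule ranks genes. Crossing and partly reached genes, their largest gains, and the remaining named list members were chosen after their values were seen.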

Additional observations from a re-analysis of the deposited data

Results flagged for a closer look

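For 16 genes, the percentiles of the 5 control embryos were searched for a single embryo far from the other 4 (Dixon's test at 95%), and 6 had one. Chance flags about 1 in 20 such groups. In control embryo 5, Zscan4c stood at 71.5 (the others at 89.8 to 97.2), Pramef17 at 85.4 (90.7 to 92.7), Rpl10l at 88.5 (95.7 to 97.2), Timd2 at 92.3 (99.3 to 99.8) and Obox6 at 99.3 (99.7 to 99.8). Gm4340 stood at 94.2 in control embryo 4 (97.8 to 99.2 in the others). In 5 of the 6 cases the embryo was control 5, which was also farthest from the others over all genes, with a median difference in percentile of 3.31 to 3.86 against each of them. Without control 5, the class counts stayed within 1.5 times their values, and Pramel7 was still the only gene reached.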

How the results depend on the processing

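Of the 314 alternative values of the main counts, 262 kept to within 1.5 times the main value or on the same side of a threshold, and 52 moved. With average ranks for ties, 28969 genes lay lower and 7916 higher in the overexpression libraries than in the embryos, in place of 4700 and 8140. The balance thus depends on how genes with no read are ranked. With average ranks such a gene stands above 0, at a rank set by the share of genes detected in its library. That share was 44.0% and 41.9% with overexpression and 32.3% to 36.7% in the control embryos. Ranking protein-coding genes only gave 2765 embryo-high, 1620 shared and 3 reached genes (AU015836, Folr1 and Gm4340), with 3.998% of other low genes at or above 60 and 2.20% of others crossing. Ranking only genes with a value above 0 in each table gave 2541 embryo-high, 1410 shared and 6 reached genes. Limits of 75 and 65 gave 938 restricted, 14 reached and 704 off genes; an upper limit of 90 gave 3054 embryo-high, 1768 shared, 199 restricted, 0 reached, 71 partly reached and 128 off genes; a lower limit of 50 gave 0 reached. Without small RNA genes 3 were reached (Pramel7, Pramef17 and Trim43a). The cause of these moves was not tested.

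Leaving out 1 library at a time gave 1 to 4 reached and 96 to 194 partly reached genes, 14.3% to 27.01% of restricted and 1.80% to 4.22% of other genes at or above 60, 0 to 5100 genes higher and 0 to 5755 lower in ESCs, and 508 to 1303 higher and 1213 to 2275 lower with RNAi. ESC calls on named genes did not survive without either control ESC library when the same filtered genes were kept. Without control ESC library 2 and with the filter on low values applied again, most survived. Some were lost without either overexpression library. Fits to fewer ESC libraries with the filter applied again gave 1161 and 1207 higher and 956 and 966 lower. In the embryo table, 649 genes were higher with RNAi without the filter, and 1252 lower in edgeR. RNAi calls lower by edgeR were 33 of the partly reached, 26 of the crossing and 989 of the embryo-high genes; with 1 embryo library left out, these were 37 to 70 of the partly reached and 977 to 1688 of the embryo-high genes. The log2 fold change of Oosp1 with RNAi turned to -0.26 with quantile normalisation and ran from -0.062 (without RNAi embryo 4) to 0.41 with 1 library left out.

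ESC libraries share numbers 1 and 2 between groups, but same-numbered libraries did not deviate together (correlation -0.007). With a replicate block, 2943 genes were higher and 3081 lower. No paired analysis was possible in the embryo table because the control columns do not carry the labels' numbers. Depth limits the embryo side most: 1 read in a control embryo is already percentile 63.3 to 67.7.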
